A study of Mus musculus with 6 samples.

Results

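The 10 genes described here are the Notch receptors *Notch1* and *Notch2*, the ligands *Dll1*, *Dll4*, *Jag1* and *Jag2*, the target genes *Hes1* and *Hes5*, and *Atoh1* and *Gfi1*, which drive the secretory fate. They were chosen by symbol, 10 of the 56884 genes counted, and each matched 1 gene identifier. Read counts came from 6 RNA sequencing libraries of Lgr5-GFP+ cells, sorted from cultured mouse small intestinal organoids, which are epithelial structures grown in vitro. Every library, controls included, had the genotype Villin-CreERT2; Lgr5-EGFP-IRES-CreERT2; Ythdf2 fl/fl. CreERT2 is a Cre recombinase that 4-hydroxytamoxifen (4-OHT) activates. It was under the epithelial villin promoter as well as in the *Lgr5* allele, so by genotype recombination was possible outside the sorted cells too. Organoids received 0.5 µM 4-OHT or ethanol (EtOH), and day 6 has 2 libraries a treatment and day 4 has 1. The series title asks how the m6A reader YTHDF2 supports intestinal stem cells through KIF26B and Wnt signalling, and the comparisons below ask whether transcripts of the Notch pathway differed between the labels. The age of the animals and whether replicates came from separate cultures are not given in the labels, so p-values measure the spread between these libraries, which may be technical.

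Notch signalling passes between neighbouring cells. A ligand of the Delta or Jagged family on one cell binds a Notch receptor on the next, the receptor is cut, and its intracellular part enters the nucleus, where it joins RBPJ and switches on *Hes* genes. In the crypt of the small intestine, Notch-active progenitors make HES1, which represses *Atoh1*, and take the absorptive fate. Cells that escape Notch signalling express *Atoh1*, then *Gfi1* and the Delta ligands, and become secretory cells.

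The bases before the start sites of the 2 *Hes* genes are shown because both are textbook Notch targets while their transcripts lay at opposite ends of the range measured here. The 250 bases upstream of the canonical GENCODE transcript were read from GRCm39, at chr16:29883877-29884126 (plus strand) for *Hes1* and chr4:155045123-155045372 (plus strand) for *Hes5*. Capitals mark the RBPJ core TGGGAA or its reverse complement.
Hes1: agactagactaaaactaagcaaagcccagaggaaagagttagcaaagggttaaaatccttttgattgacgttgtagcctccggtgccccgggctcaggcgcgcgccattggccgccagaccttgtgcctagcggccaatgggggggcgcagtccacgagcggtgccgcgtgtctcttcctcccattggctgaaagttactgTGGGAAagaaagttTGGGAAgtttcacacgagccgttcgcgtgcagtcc
Hes5: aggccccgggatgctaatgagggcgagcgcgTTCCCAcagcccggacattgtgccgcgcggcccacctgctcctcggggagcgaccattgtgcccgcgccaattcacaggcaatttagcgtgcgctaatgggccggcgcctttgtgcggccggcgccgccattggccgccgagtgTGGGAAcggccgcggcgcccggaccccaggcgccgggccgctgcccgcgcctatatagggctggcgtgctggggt
The *Hes1* window held 2 cores, both on the plus strand, whose first bases lay 49 and 35 bases before the start. The *Hes5* window held 2 cores, 219 bases (minus strand) and 75 bases (plus strand) before the start, and 146 of its bases lie in an exon of the neighbouring transcript *Gm20421*. The core was found on either strand in 22.8% of 21667 windows of that length before protein-coding genes. The N-box CACNAG, the class of site that HES proteins bind, was searched on both strands and did not overlap a core. It occurred 3 times in the *Hes1* window, 0 times in the *Hes5* window, and at least once in 36.4% of all windows. These are matches of letters, not measured sites.

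Libraries held 14345379 to 21461835 gene counts. *Ythdf2*, the floxed gene, was examined as a check of the labels. At day 6 it had 1563 and 1312 counts under EtOH and 4463 and 3816 under the label 4-OHT; at day 4 it had 1483 (EtOH) and 2466 (4-OHT). The transcript was thus higher, not lower, in every library labelled 4-OHT, and counts per gene do not show whether the floxed part was present, so every direction below is that of the libraries labelled 4-OHT. All 10 stem cell markers had counts in every library, and *Lgr5*, whose locus carries the GFP used for sorting, ranged from 210 to 368 CPM (counts scaled to a common library size by the trimmed mean of M-values, TMM). *Lgr5* had 250 and 345 CPM with EtOH and 210 and 228 CPM with 4-OHT at day 6, and 368 (EtOH) and 271 CPM (4-OHT) at day 4. Markers of endothelial cells, which also express Notch ligands and receptors, summed to 5.70 to 9.49 CPM over 6 genes, of which *Esam* alone gave 4.90 to 8.53 CPM, those of mesenchymal cells to 1.57 to 4.25 CPM and those of immune cells to 0.794 to 3.44 CPM. In bulk libraries, fewer cells of a type and less RNA per cell cannot be told apart. Exons of 6 of the 10 genes share at least 1% of their bases with another gene. The shares are 32.1% for *Hes5*, 27.6% for *Dll1* (with *Fam120b*), 15.6% for *Dll4*, 14.0% for *Notch1*, 10.3% for *Gfi1* and 4.80% for *Notch2*, and whether counting used strand was not given in the sources used here, so reads of these genes may be partly lost as ambiguous or mixed with the neighbour.

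None of the 10 genes passed the test between the labels, and *Hes1* and *Atoh1*, the opposing arms of the lineage choice, were both fitted slightly lower in the libraries labelled 4-OHT. At day 6, 9 of the 10 genes were abundant enough to test (*Hes5* was not) and edgeR's quasi-likelihood test called 0 of the 9 at 0.05 after Benjamini-Hochberg adjustment over all genes, against 2.51% of the 14066 genes tested. The 9 genes also gave 0 at an unadjusted p under 0.05, against 10.3% of all genes, and 0 by DESeq2 and by limma-voom. With both days in the fit, 3 libraries against 3 and day as a term, edgeR again called 0 of 9, against 4.39% of 14060 genes, with 3 (*Dll1*, *Dll4* and *Jag1*) at an unadjusted p under 0.05, against 16.1% of all genes, and DESeq2 and limma-voom called 0. The median log2 fold change of the 9 was −0.26 at day 6, beside −0.013 over all genes. For 6 of the 9 the 95% interval at day 6 lay within a 2-fold change either way; those of *Dll4*, *Jag1* and *Gfi1* reached past it.

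**Figure D1:**
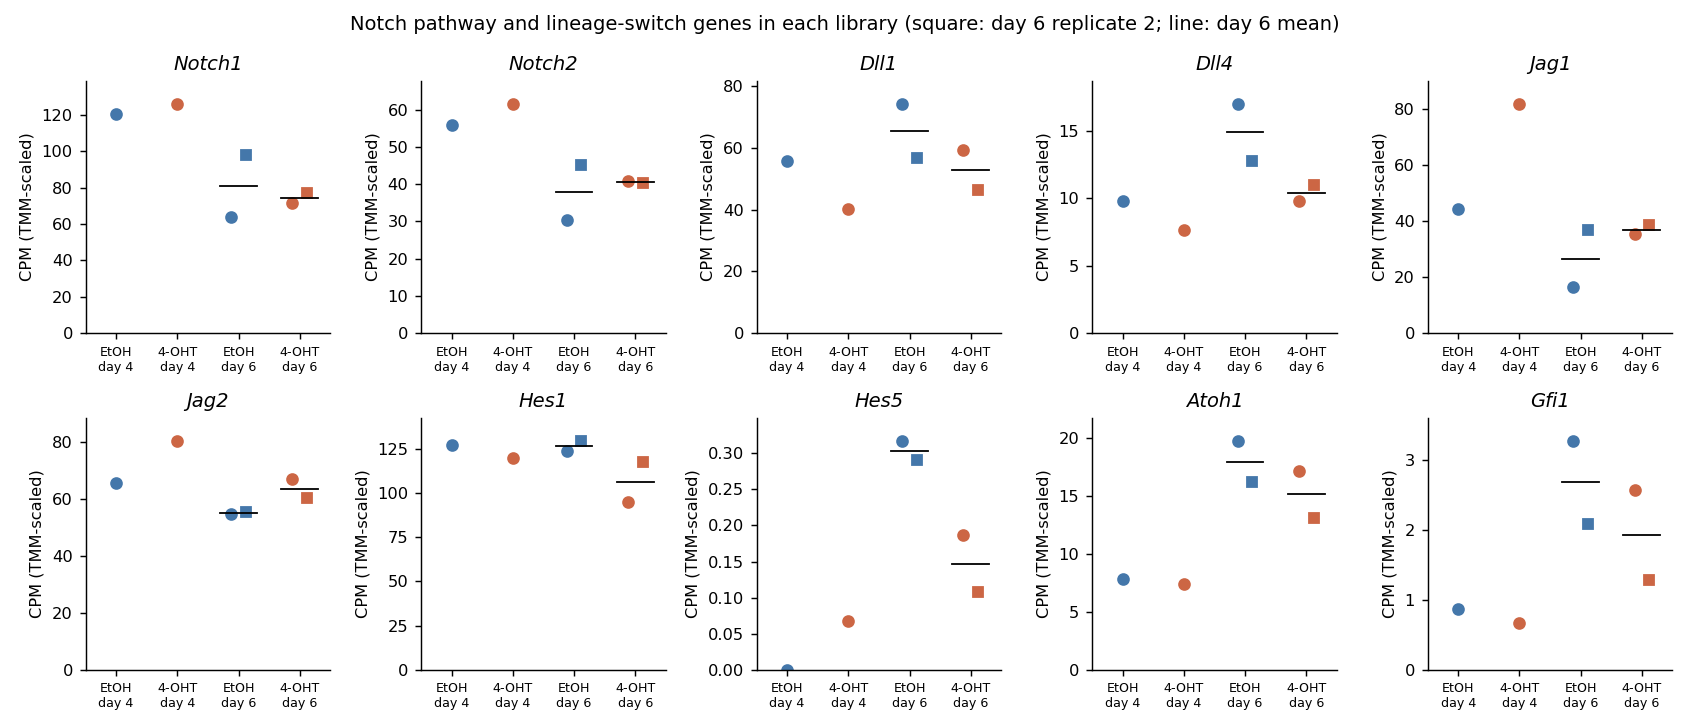
TMM-scaled CPM of the 10 genes in each of the 6 libraries, by label and day, with the day 6 means as lines and day 6 replicate 2 as squares. *Hes1* stays between 95 and 130 CPM, *Atoh1* is at 7.40 and 7.85 CPM at day 4 and at 13.1 to 19.7 CPM at day 6, and *Hes5* does not exceed 0.318 CPM.

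The receptors are single-pass proteins that carry the signal from the membrane to the nucleus, and NOTCH1 and NOTCH2 are the ones that act in crypt progenitors. *Notch1* (chromosome 2, 26347915 to 26406675, minus strand, GRCm39) stood at 63.6 and 98.2 CPM in the day 6 EtOH libraries, 71.7 and 77.1 CPM in those labelled 4-OHT, and 121 (EtOH) and 126 CPM (4-OHT) at day 4. *Notch2* (chromosome 3, 97920800 to 98057677, plus strand) stood at 30.3 and 45.3 CPM with EtOH and 41.0 and 40.2 CPM with 4-OHT at day 6, and at 55.9 (EtOH) and 61.6 CPM (4-OHT) at day 4. For both receptors the 4-OHT libraries of day 6 lay inside the range of the EtOH libraries, whose replicates differed more from each other than the labels did. The day 6 log2 fold change was −0.13 (standard error, SE, 0.21, adjusted p = 0.927) for *Notch1* and 0.10 (SE 0.22, adjusted p = 0.956) for *Notch2*. Neither direction was stable: *Notch1* became 0.21 without EtOH replicate 2 and *Notch2* became −0.16 without EtOH replicate 1.

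Among the ligands, the Delta genes were fitted lower and the Jagged genes higher in the libraries labelled 4-OHT on both days, and none passed the test. *Dll1* (chromosome 17, 15587276 to 15597134, minus strand) encodes, with *Dll4*, the ligand that secretory cells present to stem cells. It measured 74.3 and 56.8 CPM with EtOH and 59.5 and 46.5 CPM with 4-OHT at day 6, and 55.7 (EtOH) and 40.1 CPM (4-OHT) at day 4. *Dll4* (chromosome 2, 119156170 to 119166443, plus strand) measured 17.0 and 12.8 CPM with EtOH and 9.76 and 11 CPM with 4-OHT at day 6, and 9.80 (EtOH) and 7.67 CPM (4-OHT) at day 4. At day 6 the labels overlapped for *Dll1* and did not for *Dll4*. Separation of the labels was common, at 38.7% of all genes tested in either direction and 18.0% downward. Over both days the log2 fold change was −0.36 for *Dll1* (SE 0.15, adjusted p = 0.259) and −0.47 for *Dll4* (SE 0.19, adjusted p = 0.251), both from edgeR's quasi-likelihood fit across all genes. Both were lower in the 4-OHT library at day 4 as well as in the day 6 mean, with day 4 values of −0.47 (*Dll1*) and −0.35 (*Dll4*).

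*Jag1* (chromosome 2, 136923373 to 136958693, minus strand) and *Jag2* (chromosome 12, 112871421 to 112893437, minus strand) encode the Jagged ligands. *Jag1* varied most between the EtOH replicates. At day 6 it stood at 16.4 and 36.6 CPM with EtOH and at 35.2 and 38.4 CPM with 4-OHT, and at day 4 at 44.3 (EtOH) and 81.7 CPM (4-OHT). The second EtOH replicate therefore lay among the 4-OHT libraries while the first lay at a lower level than any of them, and the day 6 log2 fold change of 0.47 (SE 0.31, adjusted p = 0.719) rested on EtOH replicate 1. Without that library it was 0.005 (adjusted p = 0.995), and without EtOH replicate 2 it was 1.15 (adjusted p = 0.043, edgeR on the 3 libraries left, a fit that called 1.88% of all genes). Over both days *Jag1* was at 0.62 (SE 0.25, adjusted p = 0.244), and at 1.03 (adjusted p = 0.00259) without EtOH replicate 2 of day 6, a fit that called 4.79% of all genes. *Jag2* was steadier, with 54.6 and 55.3 CPM (EtOH) and 66.8 and 60.2 CPM (4-OHT) at day 6 and 65.5 (EtOH) and 80.4 CPM (4-OHT) at day 4. Its labels did not overlap at day 6, upward, as for 20.7% of all genes tested, and its log2 fold change of 0.20 (SE 0.17, adjusted p = 0.806) did not pass.

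*Hes1* (chromosome 16, 29882134 to 29886643, plus strand), the repressor through which Notch holds *Atoh1* down, was the highest of the 10 per length in every library. It measured 124 and 130 CPM in the day 6 EtOH libraries and 95 and 118 CPM in those labelled 4-OHT, and 127 (EtOH) and 120 CPM (4-OHT) at day 4. All 3 libraries labelled 4-OHT were thus below all 3 EtOH libraries, a separation seen for 9.01% of all genes tested. The difference was small: the day 6 log2 fold change was −0.26 (SE 0.17, 95% interval −0.64 to 0.11, adjusted p = 0.707), and over both days it was −0.20 (SE 0.12, 95% interval −0.46 to 0.07, adjusted p = 0.461), both from edgeR. *Hes5* (chromosome 4, 155045373 to 155046828, plus strand), the other textbook target, was at the limit of detection, with 6 and 5 counts (EtOH) and 4 and 2 counts (4-OHT) at day 6. At day 4 it had 1 count with 4-OHT and 0 with EtOH, where a count of 0 allows up to 0.154 CPM (3 counts), counting error only. The exact 95% Poisson intervals of the day 6 counts, 2.20 to 13.1 at the highest and 0.242 to 7.22 at the lowest, overlap, so that no difference was detectable at this depth.

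*Atoh1* (chromosome 6, 64706109 to 64708229, plus strand) encodes the transcription factor required for all secretory lineages but for tuft cells, for which reports differ. It stood at 19.7 and 16.1 CPM in the day 6 EtOH libraries, 17.1 and 13.1 CPM in those labelled 4-OHT, and 7.85 (EtOH) and 7.40 CPM (4-OHT) at day 4. The labels overlapped at day 6, with a log2 fold change of −0.26 (SE 0.24, 95% interval −0.80 to 0.29, adjusted p = 0.844), and were nearly level at day 4 (−0.09). *Gfi1* (chromosome 5, 107864523 to 107873902, minus strand), a repressor downstream of ATOH1 that favours goblet and Paneth over enteroendocrine fate, had 62 and 36 counts with EtOH and 55 and 24 with 4-OHT at day 6. Its day 4 counts were 17 (EtOH) and 10 (4-OHT). Its log2 fold change of −0.47 (SE 0.46, adjusted p = 0.846) has an interval of −1.50 to 0.55, since these counts are low. Per kilobase of all annotated exons, *Hes1* exceeded *Atoh1* 3.94-fold and 5.05-fold in the EtOH libraries of day 6 and 3.48-fold and 5.67-fold in those labelled 4-OHT, so the EtOH values lay inside the range of the 4-OHT values. At day 4 the ratio was 10.2 (EtOH) and 10.15 (4-OHT). The ratio separated the days and not the labels.

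**Figure D2:**
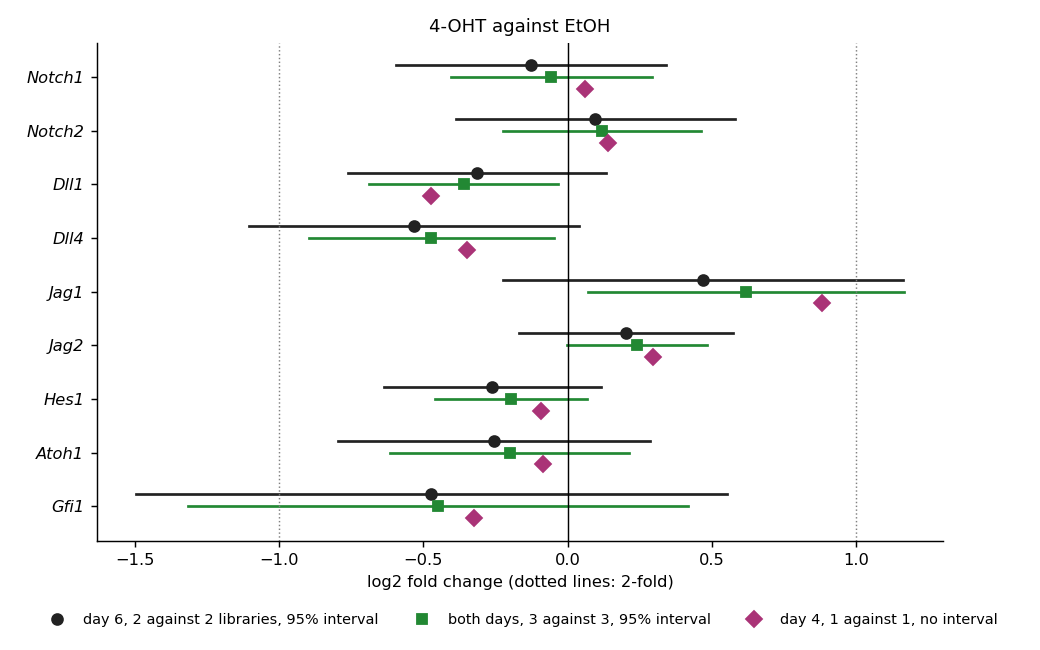
Log2 fold change of 4-OHT against EtOH for the 9 genes tested, at day 6 (circles) and over both days (squares) with 95% intervals, and at day 4 (diamonds, 1 library each, no interval). The day 6 intervals all include 0; over both days those of *Dll1*, *Dll4* and *Jag1* leave it out before adjustment, and dotted lines mark a 2-fold change.

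The direction at day 4 was that of day 6 for 8 of the 9 genes, *Notch1* being the exception, but at day 4 there is 1 library a label and no test. Of the 8 genes averaging 1 CPM or more at day 4 (not *Gfi1* or *Hes5*), 0 were 2-fold apart, against 5.92% (4.47% higher, 1.44% lower) of the 12827 genes at that level, and *Jag1* came nearest (0.88). The difference of the 4-OHT effect between the days was tested as an interaction. By edgeR it was called for 0 of the 9 genes and for 0 of all 14060 (0%), with 0 of the 9 at an unadjusted p under 0.05, against 1.62% of all genes, and 0 of the 9 by DESeq2. The *Hes1* and *Atoh1* interaction values were −0.18 each (SE 0.29 and 0.46).

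Levels per kilobase used all exons annotated for a gene, over all its transcripts (3376 bases for *Hes1*, 2121 for *Atoh1*). This length can exceed that of the transcript expressed, so levels compare only roughly between genes. On this scale the day 6 order was led by *Hes1* at 34.5 ± 4.50 CPM per kb (SD, n = 4 libraries of both labels). *Dll1* (11.95 ± 2.31), *Jag2* (8.35 ± 0.794) and *Atoh1* (7.79 ± 1.30) followed, then *Notch1* (5.46 ± 1.04), *Jag1* (5.31 ± 1.72), *Notch2* (3.48 ± 0.565) and *Dll4* (3.20 ± 0.802). *Gfi1* (0.724 ± 0.263) and *Hes5* (0.165 ± 0.0706) were last. Only *Hes1*, *Gfi1* and *Hes5* stood clear of their neighbours in this order; from *Dll1* to *Dll4* each gene's libraries overlapped those of the next. At day 4 *Jag1* was second (10.6 CPM per kb) and *Atoh1* seventh (3.60).

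For *Atoh1*, *Gfi1*, *Notch1*, *Notch2* and *Jag1* the larger contrast lay between the days. For *Hes1* and *Dll1* the label fold change over both days (log2 −0.20 and −0.36) exceeded the day fold change (−0.10 and 0.31) in size. Compared with day 4, the day 6 libraries had more *Atoh1* and *Gfi1* and less *Notch1*, *Notch2* and *Jag1* in every library, whichever the label, while *Hes1* stayed level. These 5 of 9 genes had libraries that did not overlap between the days, against 20.1% of all genes tested (10.6% higher and 9.50% lower at day 6). In the fit of all 6 libraries with the label as a term, the day 6 minus day 4 log2 fold change was 1.11 for *Atoh1* (SE 0.21, adjusted p = 0.0629) and 1.58 for *Gfi1* (SE 0.48, adjusted p = 0.212). It was −0.97 for *Jag1* (SE 0.25, adjusted p = 0.153), −0.68 for *Notch1* (SE 0.16, adjusted p = 0.126) and −0.59 for *Notch2* (SE 0.16, adjusted p = 0.165). *Dll4* (0.51, SE 0.21) and *Dll1* (0.31, SE 0.16) were fitted higher at day 6, *Jag2* lower (−0.31, SE 0.11), and *Hes1* was at −0.10 (SE 0.12, 95% interval −0.38 to 0.18).

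By edgeR 0 of the 9 genes passed between the days, against 0.562% of 14060 genes (0.327% higher, 0.235% lower), although 7 of 9 had an unadjusted p under 0.05, against 12.6% of all genes. DESeq2 called 3 (*Atoh1*, adjusted p = 0.000459; *Notch1*, 0.0155; *Jag1*, 0.0174), against 2.35% of the 13514 genes with an adjusted p there, and limma-voom 0. Without EtOH replicate 2 of day 6, edgeR called 4 (*Atoh1*, *Jag1*, *Notch1* and *Notch2*), against 3.83% of the 14597 genes in that fit. The numbering of the library names differs between the days, so day and library set cannot be told apart. The day 4 libraries also had more reads outside genes (6.19% and 6.70%, against 2.63% to 3.76% at day 6) and more genes with a count (26521 and 24195, against 19522 to 20622), whose part in these values was not tested. Of the 6 endothelial markers, named here after their values were seen, *Tek* had 0.718 (EtOH) and 0.740 CPM (4-OHT) at day 4 and 0 to 0.187 CPM at day 6, and *Tie1* had 0.462 (EtOH) and 0.336 CPM (4-OHT) at day 4 and 0 to 0.0934 CPM at day 6. The defining markers *Cdh5* and *Kdr* had 0 counts in 5 of the 6 libraries and 1 and 3 counts in the day 4 EtOH library. *Tek* and *Tie1*, at 5 to 14 counts in the day 4 libraries, were thus higher at day 4. *Esam*, the most abundant of the 6, overlapped between the days, with 6.10 (EtOH) and 8.01 CPM (4-OHT) at day 4 and 4.90 to 8.53 CPM at day 6. So did *Pecam1*, with 0.770 (EtOH) and 0.404 CPM (4-OHT) at day 4 and 0.232 to 0.537 CPM at day 6. The part of these markers in the day difference of *Notch1*, *Notch2* and *Jag1* was not tested.

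**Figure D3:**
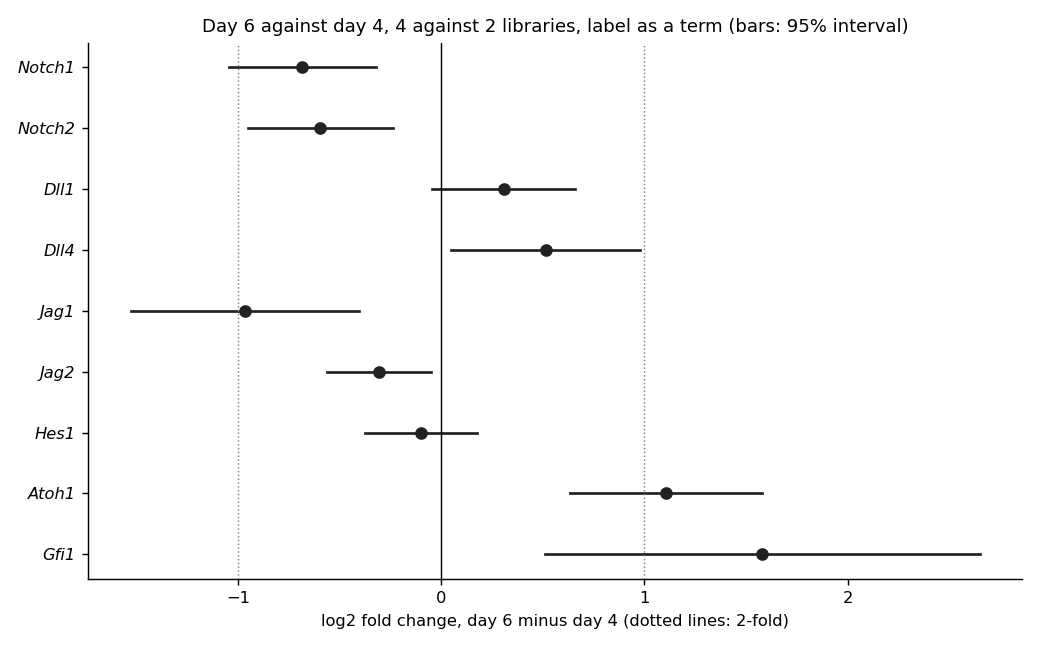
Log2 fold change of day 6 against day 4 for the 9 genes tested, with 95% intervals from the fit of 6 libraries with the label as a term. *Atoh1* (1.11) and *Gfi1* (1.58) are on the side of day 6, *Jag1* (−0.97), *Notch1* (−0.68) and *Notch2* (−0.59) on that of day 4, and *Hes1* (−0.10) lies at 0.

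The rest of the pathway was read from lists of its other receptors and ligands, the enzymes that cut and glycosylate the receptor, endocytosis and turnover factors, the nuclear complex and further target genes. Of these 60 genes, 52 were abundant enough at day 6 and 1 was called, *Olfm4*, lower, as were 0.235% of all genes. Over both days 2 of 51 were called, *Olfm4* lower (0.718% of all genes) and *Furin* higher (3.67%). The day 6 median of the 52 was 0.06, beside −0.013 over all genes. *Olfm4* is also on the list of 10 stem cell markers, of which 6 were fitted lower and 4 higher over both days. There edgeR called *Olfm4* alone, against 4.39% of all genes. DESeq2 called *Olfm4*, *Lgr5* and *Smoc2*, all lower, but its share over all genes is not given here, so that count cannot be weighed. By edgeR *Lgr5* was at −0.45 at day 6 (SE 0.19, adjusted p = 0.413) and −0.44 over both days (SE 0.13, adjusted p = 0.11). *Olfm4*, a secreted glycoprotein of stem cells whose transcription depends on Notch, measured 3303 and 2247 CPM with EtOH and 1325 and 988 CPM with 4-OHT at day 6, and 1480 (EtOH) and 856 CPM (4-OHT) at day 4. Its 3 libraries labelled 4-OHT lay below the 3 EtOH libraries, with a log2 fold change of −1.27 (adjusted p = 0.0312) at day 6 and −1.10 (adjusted p = 0.0119) over both days. The day 6 call was lost without EtOH replicate 1 (−0.96, adjusted p = 0.264), EtOH replicate 2 (−1.53, adjusted p = 0.0616) or 4-OHT replicate 2 (−1.08, adjusted p = 0.0604), and the call over both days without 4-OHT replicate 2 of day 6 (−0.95, adjusted p = 0.0565) or with no day term (−1.15, adjusted p = 0.0785).

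*Furin*, the protease that makes the first cut in the Notch precursor and cuts many other proteins, rose by 0.49 over both days (SE 0.11, adjusted p = 0.0368), with 0.50 at day 6 (adjusted p = 0.23) and 0.45 at day 4. That call was lost without either 4-OHT library of day 6 (adjusted p = 0.139 and 0.145) or either day 4 library (0.228 each), with no filter on low counts (0.0622) and with no day term (0.052). Of 10 target genes, 4 were testable (*Hes1*, *Olfm4*, *Nrarp* and *Notch3*), and the classical targets *Hey1*, *Hey2*, *Heyl* and *Hes7* stood at or under 0.561 CPM in every library. The 4 testable targets were all fitted lower at day 6 (median −0.48), and 3 lower and 1 higher over both days. *Nrarp*, named after its values were seen, had 5.61 and 5.17 CPM (EtOH) and 3.74 and 2.90 CPM (4-OHT) at day 6. At day 4 it had 6.72 (EtOH) and 4.84 CPM (4-OHT). By edgeR it stood at −0.70 at day 6 (adjusted p = 0.523) and −0.61 over both days (adjusted p = 0.223). *Gm38287* overlaps 79.4% of its exon bases. *Rbpj*, the DNA-binding partner of the receptor, also named outside the rule, was at 0.05 (SE 0.19, adjusted p = 0.974) at day 6. *Notch3*, named after its values were seen, had 4.34, 8.65, 3.36 and 7.68 CPM at day 6 (EtOH, then 4-OHT) but 13.6 (EtOH) and 35.9 CPM (4-OHT) at day 4, and its day difference of −1.98 (SE 0.41) had an adjusted p of 0.0805.

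**Figure D4:**
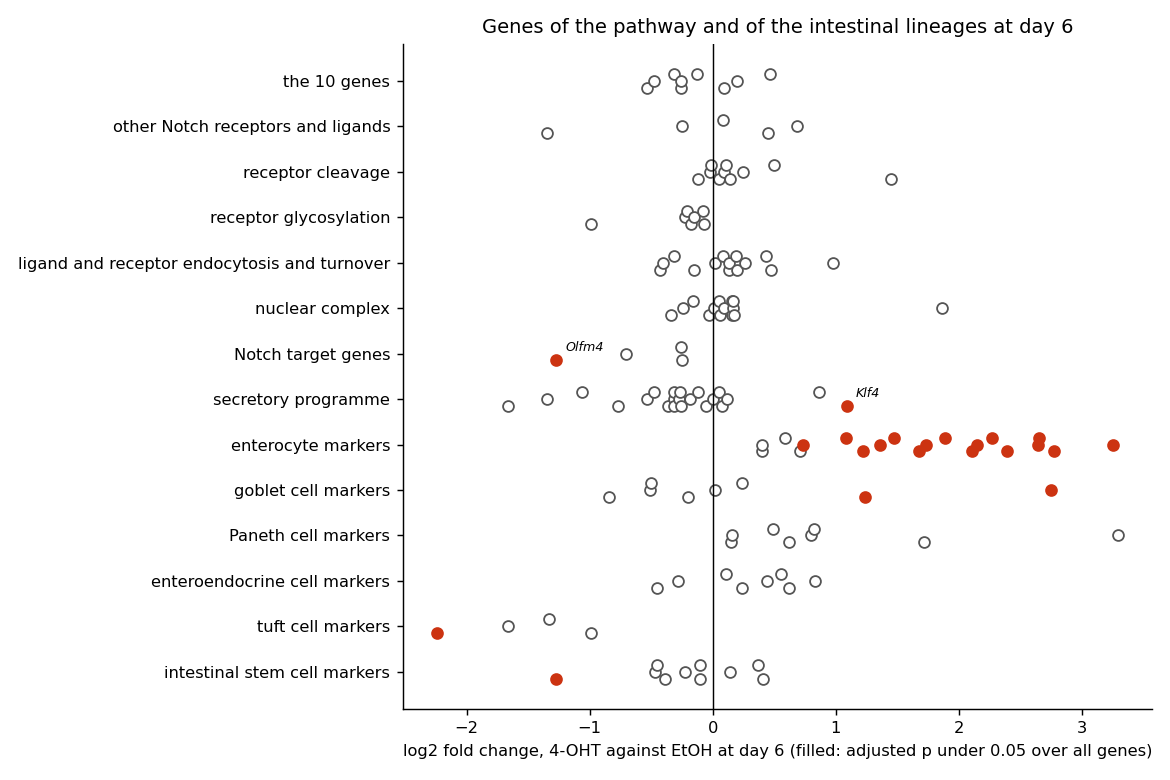
Log2 fold change of 4-OHT against EtOH at day 6 for every tested gene of each list, filled where the adjusted p over all genes is under 0.05 (edgeR). Filled points are single genes in the pathway and secretory lists, *Olfm4* and *Klf4*, and make up 16 of 20 enterocyte markers. Also filled are *Clca1* and *Zg16* among goblet markers, *Dclk1* among tuft markers, and *Olfm4* again among stem cell markers.

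The lineage programmes downstream of this choice were compared in the same libraries. Of 20 enterocyte markers, 16 rose at day 6, against 2.27% of all genes, with a median log2 fold change of 1.71. At day 4, 10 of the 19 averaging 1 CPM or more were at least 2-fold higher in the library labelled 4-OHT, against 4.47% of all genes, and 3 were lower. Of 23 secretory programme genes, 4 of which are *Atoh1*, *Gfi1*, *Dll1* and *Dll4*, 22 were tested. At day 6, 16 were fitted lower and 6 higher, with a median of −0.27. By edgeR 6 had an unadjusted p under 0.05 at day 6, against 10.3% of all genes, and 9 over both days, against 16.1%. After adjustment 1 was called at day 6, against 2.51% of all genes. That gene was *Klf4*, a factor of post-mitotic epithelial and goblet cells, which rose from 44.0 and 61.2 CPM (EtOH) to 97.9 and 127 CPM (4-OHT), a log2 fold change of 1.09 (adjusted p = 0.0238). The call was lost without EtOH replicate 1 (0.87, adjusted p = 0.146) or 4-OHT replicate 2 (0.88, adjusted p = 0.0888). Over both days *Klf4* rose (0.89, adjusted p = 0.0201), a call lost without 4-OHT replicate 2 of day 6 (0.72, adjusted p = 0.0761).

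*Pou2f3*, the master factor of tuft cells, had 7.73 and 4.24 CPM with EtOH and 1.82 and 1.99 CPM with 4-OHT at day 6, and 2.77 (EtOH) and 1.41 CPM (4-OHT) at day 4. It fell by 1.49 on the log2 scale over both days (adjusted p = 0.0368), and stood at −1.67 at day 6 (adjusted p = 0.0718). The call over both days was lost without EtOH replicate 1 of day 6 (−1.09, adjusted p = 0.113), 4-OHT replicate 1 (−1.37, adjusted p = 0.162) or 4-OHT replicate 2 (−1.47, adjusted p = 0.145) of day 6, or the 4-OHT (−1.67, adjusted p = 0.0683) or EtOH (−1.66, adjusted p = 0.0726) library of day 4. With limma-voom *Pou2f3* was called neither over both days (−1.44, adjusted p = 0.0605) nor at day 6 (adjusted p = 0.128), nor over both days by edgeR with no day term (adjusted p = 0.124); DESeq2 called it over both days (adjusted p = 0.00666) and at day 6 (0.0221).

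Mature secretory markers were compared with *Atoh1* library by library. At day 4, where *Atoh1* was nearly level between the labels, all 7 Paneth and all 7 enteroendocrine markers averaging 1 CPM or more were over 2-fold higher in the library labelled 4-OHT, against 4.47% of all genes. Their sums were 397 (EtOH) and 1645 CPM (4-OHT) for Paneth markers and 57.2 (EtOH) and 277 CPM (4-OHT) for enteroendocrine markers. At day 6 edgeR called 0 of 8 Paneth markers (4 at an unadjusted p under 0.05, against 10.3% of all genes, 0 by DESeq2 and limma-voom). All 8 were fitted higher, with a median of 0.71. It called 0 of 8 enteroendocrine markers (0 at an unadjusted p under 0.05, 0 by both other tools), of which 6 were fitted higher. Over both days edgeR called 1 of 8 Paneth markers, *Ang4* (2.115, adjusted p = 0.0181), against 3.67% of all genes called higher. DESeq2 and limma-voom also called *Ang4*. At an unadjusted p under 0.05 there were 5 Paneth and 4 enteroendocrine markers by edgeR, against 16.1% of all genes. Their day 6 sums were 2811 and 2022 CPM (EtOH) and 4968 and 2029 CPM (4-OHT) for Paneth markers, and 461, 390, 737 and 381 CPM in that order for enteroendocrine markers. Both sums were thus higher in every day 6 library than in either day 4 library, as *Atoh1* was. Unlike *Atoh1* (7.85 CPM with EtOH and 7.40 CPM with 4-OHT), they also differed between the labels at day 4. The part of these markers in the day difference of *Atoh1* and *Gfi1* was not tested. Of 8 goblet markers 2 rose at day 6 (*Clca1*, 1.24, and *Zg16*, 2.75), against 2.27% of all genes, while 4 of the 8 were fitted lower, the median was −0.09, and the summed level was 3362 and 3477 CPM with EtOH and 2888 and 2598 CPM with 4-OHT. Most of that sum was *Fcgbp*, named after its values were seen, with 2195 and 2437 CPM (EtOH) and 1591 and 1695 CPM (4-OHT). By edgeR *Fcgbp* was not called at day 6 (adjusted p = 0.399). At day 4, 7 of the 8 markers were higher in the library labelled 4-OHT and 1, *Fcgbp*, was lower. The day 4 sums were 2046 (EtOH) and 2418 CPM (4-OHT), of which *Fcgbp* gave 1477 (EtOH) and 1308 CPM (4-OHT). At least 2-fold higher were 4 of the 8, against 4.47% of all genes. Of 4 testable tuft markers, all fitted lower at day 6, edgeR called 1 there (*Dclk1*, −2.24, adjusted p = 0.0388), against 0.235% of all genes. DESeq2, which called 68 of the same 14066 genes lower at day 6, called 3 of the 4, and limma-voom 0. *Dclk1* had 118 and 65 counts (EtOH) and 31 and 12 counts (4-OHT) at day 6. It was level at day 4, at 1.23 (EtOH) and 1.21 CPM (4-OHT), and edgeR did not call it over both days (adjusted p = 0.0859).

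**Figure D5:**
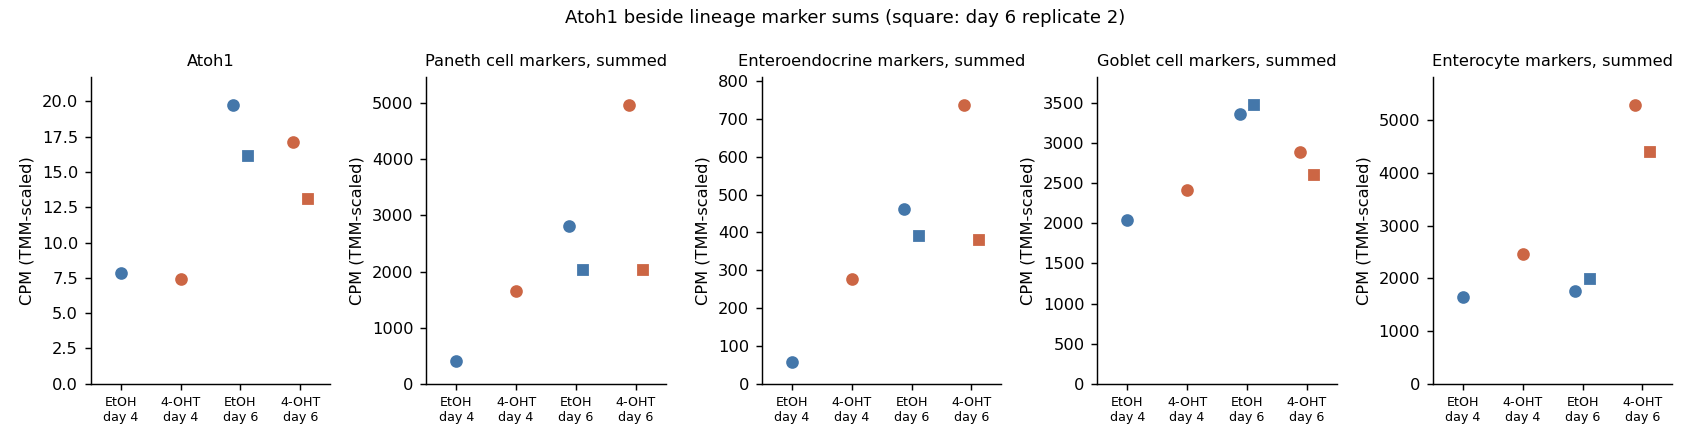
*Atoh1* beside the summed CPM of the Paneth, enteroendocrine, goblet and enterocyte marker lists in each of the 6 libraries, squares marking day 6 replicate 2. *Atoh1* separates the days, while the enterocyte sum is highest in the day 6 libraries labelled 4-OHT (5290 and 4407 CPM, against 1762 and 1985 CPM with EtOH).

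The genes whose pattern over the 6 libraries lay nearest to 3 of the 10 were found by the root mean square distance of log2 CPM, centred on each gene's mean, among 10120 protein-coding genes with at least 5 CPM. For *Hes1* they were *Ift172* (0.029), *Slc25a25* (0.038) and *Phka2* (0.047), where the median gene lay at 0.232. For *Atoh1* they included *Hepacam2* (0.133) and *Cplx2* (0.175), with a median of 0.557. *Hepacam2*, for example, had 30.3 and 21.1 CPM (EtOH) and 24.9 and 16.4 CPM (4-OHT) at day 6, and 9.44 (EtOH) and 11.1 CPM (4-OHT) at day 4. For *Dll4* they were *Rab15* (0.092), *Ift27* (0.093) and *Ggact* (0.098), with a median of 0.382.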

How the data were processed

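Poly(A)-selected RNA of 6 libraries was sequenced, per the labels' protocols. The authors deposited whole-number read counts per gene, not normalized, for 56884 Ensembl identifiers, with 4 summary lines (19.3% to 26.7% of all entries) that were left out here. STAR and the build mm39 are named in the submitters' processing notes; the counting options and annotation release are not given in the sources used here. Symbols and positions came from GENCODE M39 (GRCm39), which matched 56323 identifiers.

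Counts were tested with edgeR 4.0.16 (quasi-likelihood, TMM scaling, filterByExpr with a minimum count of 10) in R 4.3.3, at a Benjamini-Hochberg adjusted p of 0.05. The SE is the log2 fold change over the square root of F. CPM are edgeR's library-size-scaled counts, with TMM scaling over all 6 libraries. Day 4 fold changes used a prior count of 2. Alternatives were median-of-ratios scaling, other filters, DESeq2 1.42.0, limma-voom (limma 3.58.1), a replicate block, other sets of libraries and another prior count. Scripts were tested on simulated data.

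The 10 genes and the lists were chosen with earlier results of these data known. From the pathway and secretory lists, genes past the threshold at day 6 or over both days were named, at most 5 a list, besides *Ythdf2*, *Lgr5* and the 3 nearest genes in pattern to *Hes1*, *Atoh1* and *Dll4*. 1 gene that this rule names is not reported here. Day 6 replicates differed by more than sampling noise (chi-square per degree of freedom 23.6 and 16.5). Intervals on counts cover counting error only.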

Additional observations from a re-analysis of the deposited data

How the results depend on the processing

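The number of Notch genes called between the labels was 0 at day 6 and over both days under each alternative but for *Jag1* without EtOH replicate 2 of day 6 (range 0 to 1 over libraries left out, in each comparison). Between the days it was 0 by edgeR, 1 without a filter on low counts, 3 with DESeq2 and 0 to 4 over libraries left out. Of 402 recomputed fold changes of these genes, 386 kept their direction and side of the threshold, 10 gained a call and 6 reversed. The reversed values, the cause of which was not tested, were *Notch1* without EtOH replicate 2 of day 6 (0.215 and, as tested, 0.214 at day 6; 0.149 over both days) and *Notch2* without EtOH replicate 1 of day 6 (−0.164 and −0.163 at day 6; −0.028 over both days). Among the other genes, the day difference of *Furin* became 0.036 and that of *Klf4* 0.055 without EtOH replicate 1 of day 6, and that of *Klf4* 0.218 without the day 4 EtOH library.

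Counts of all genes called moved more. At day 6 there were 353, 839 with a replicate block, and 99 to 409 over libraries left out, an alternative added after seeing the data in which the lone library of a label is assumed to vary like the others. Over both days there were 617, 361 without a day term and 361 to 699 over libraries left out (384 without 4-OHT replicate 1 and 394 without 4-OHT replicate 2 of day 6). Between the days there were 79, 182 without a filter, 318 with DESeq2, 42 with limma-voom and 12 to 559 over libraries left out (44 without 4-OHT replicate 1 of day 6, 36 without the day 4 EtOH library). The interaction gave 6 genes with DESeq2, and 228 at an unadjusted p under 0.05 with edgeR. The labels do not say that replicate numbers pair the day 6 libraries, and same-numbered libraries deviated together over genes with a correlation of 0.266 for the 2 numbers. With the replicate block no Notch gene was called, and *Jag1* had 0.57 (adjusted p = 0.119) at day 6; *Pou2f3* gained a day 6 call (adjusted p = 0.000432).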
